A study of Rattus norvegicus with 23 samples.

Results

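The arrays compared here measured the periodontal ligament of right first mandibular molars in 43-day-old rats, in animals of an experiment on unopposed molars and in control animals. The members are defined by the sample labels, as the arrays labelled right molar and 43 days old: 6 arrays of the 23 in the series, 3 experimental and 3 control. This part of the series and the gene lists below were chosen with earlier results of these data known. Each array holds RNA from the ligament of 1 tooth of 1 animal. The animals were male Wistar rats, 4 weeks old at the start per the labels, and no transgene or drug is named for either group. An unopposed molar is a tooth that has lost the tooth it bites against, so that it no longer carries chewing load. The labels call both molars of an experimental animal experimental and do not say on which side the opposing tooth was missing. The experimental animals are called E4, E5 and E7 here and the controls C4, C5 and C6, after the numerals in the sample titles. That a numeral stands for 1 animal is an assumption, since the labels do not say so in words. The count of animals and the matching of left with right molars rest on it. The ligament was obtained after tooth extraction, its total RNA was isolated on columns, and the labelled product was hybridised to an Affymetrix whole-transcript array.

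The periodontal ligament is the band of collagen fibres that slings a tooth root in its bony socket. Its fibroblasts make and turn over fibrillar collagen and small proteoglycans, and at its margins lie cementoblasts on the root, osteoblasts and osteoclasts on the bone, and a dense bed of vessels. The tissue is known to sense chewing load, and a tooth that loses its antagonist continues to erupt while its socket is remodelled. The marrow spaces of the jaw open close to the socket wall, and the gum epithelium joins the tooth at its neck, so both lie near the tissue that was collected.

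Expression is given on the log2 scale, on which 1 unit is a 2-fold difference, after quantile normalization, which gives every array the same distribution of values. Levels of different genes on an array cannot be set against each other, so only the same gene is compared across arrays. Unless stated otherwise, a difference is the experimental mean minus the control mean of the right molars at 43 days, with the standard error (SE) of limma's fit and n = 3 animals in each group. Values of single arrays are given in the order E4, E5, E7 and C4, C5, C6. Nothing in the labels says more of the animals' housing or litters. Unless stated otherwise, SE and p-values come from a single fit to all 23 arrays. They measure the spread within groups, pooled over all 8 groups of the series, and not that of the arrays compared alone.

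No gene passed the threshold of an adjusted p of 0.05 in limma's test with Benjamini-Hochberg adjustment (0 of 13624 genes, 0%), and the smallest adjusted p was 0.873. At an unadjusted p under 0.05 stood 644 genes, of which 459 lay higher in the experimental molars (3.37% of the genes tested) and 185 lower (1.36%). In 895 genes (6.57%) all 3 experimental values lay above all 3 control values, and in 500 genes (3.67%) all lay below. The difference was above 0 in 56.7% of all genes, and its median was 0.03. It reached 1 log2 unit upward in 82 genes (0.602%) and downward in 22 genes (0.161%). The median half-width of the 95% interval of a gene's difference was 0.37, so a difference of much less than that could not be told from 0 with this number of arrays. All genes named from here on missed the threshold in this fit, with adjusted p-values of 0.873 or more, and their values describe these 6 animals.

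The split between higher and lower genes depended on the scaling. Of the genes at an unadjusted p under 0.05, 71.3% lay higher after quantile normalization, 83.6% with the arrays centred on their medians and 27.1% in the values as deposited, where the median of all genes was -0.10. Array quality weights were the setting that changed the call. With weights estimated by limma's default method, 1745 genes passed the threshold, but the estimation stopped before it converged and gave 3 of the 23 arrays weights above 10, among them E5 right with 15.6 against 0.257 for E7 right. With gene-by-gene weights, an alternative added after seeing the data, 244 genes passed, 227 of them higher and 17 lower in the experimental molars, with weights of 3.35 for E5 right and 0.33 for E7 right. Without E7, 4 genes passed, and they are named with their groups below.

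By their deposited medians the 23 arrays fell into a higher set of 11 and a lower set of 12. Of the 6 compared, C4 lay in the higher set and the other 5 in the lower, so the higher set alone gives no comparison. A block for the set left 0 genes past the threshold and 566 at an unadjusted p under 0.05. Within the lower set 0 genes passed and 1092 stood at an unadjusted p under 0.05. Of the 3 experimental arrays, E4 and E7 stood apart from the others in tissue markers. Mean levels of the 15 measured oral epithelium genes, keratins and desmosome proteins of the gum lining, were 8.25, 10.69 and 11.91 in the experimental molars against 10.31, 10.57 and 10.82 in the controls. E4 was thus below and E7 above every control. The list median was -0.37, and 0.57 without E4. Krt13, a suprabasal keratin of oral mucosa, stood at 7.94, 12.59 and 13.63 against 12.47, 12.35 and 12.96, and basal Krt14 at 11.60, 12.95 and 13.44 against 12.85, 13.19 and 13.27. Krt76, a keratin of the gum and palate, had the largest difference of all genes tested, at 7.49, 9.94 and 13.04 against 7.47, 7.34 and 7.37. Its difference of 2.76 ± 1.60 rested on E7 and E5, since E4 lay just above the controls. Skeletal muscle genes, with a list median of 0.56 that was -0.009 without E7, were high on E7 alone, with list means of 6.45, 6.42 and 8.23 against 6.46, 6.78 and 6.32. Myoglobin (Mb), for example, stood at 6.08, 6.13 and 9.37 against 6.2, 6.85 and 6.08. Because these markers differed between animals of the same group, each list below that turned direction without E4 or E7 is given with and without them. A value without an array comes from the fit to the remaining arrays, in which the left molar of that animal stays, and can differ from a plain difference of means. The part of epithelium or muscle in the differences was not tested.

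**Figure D1:**
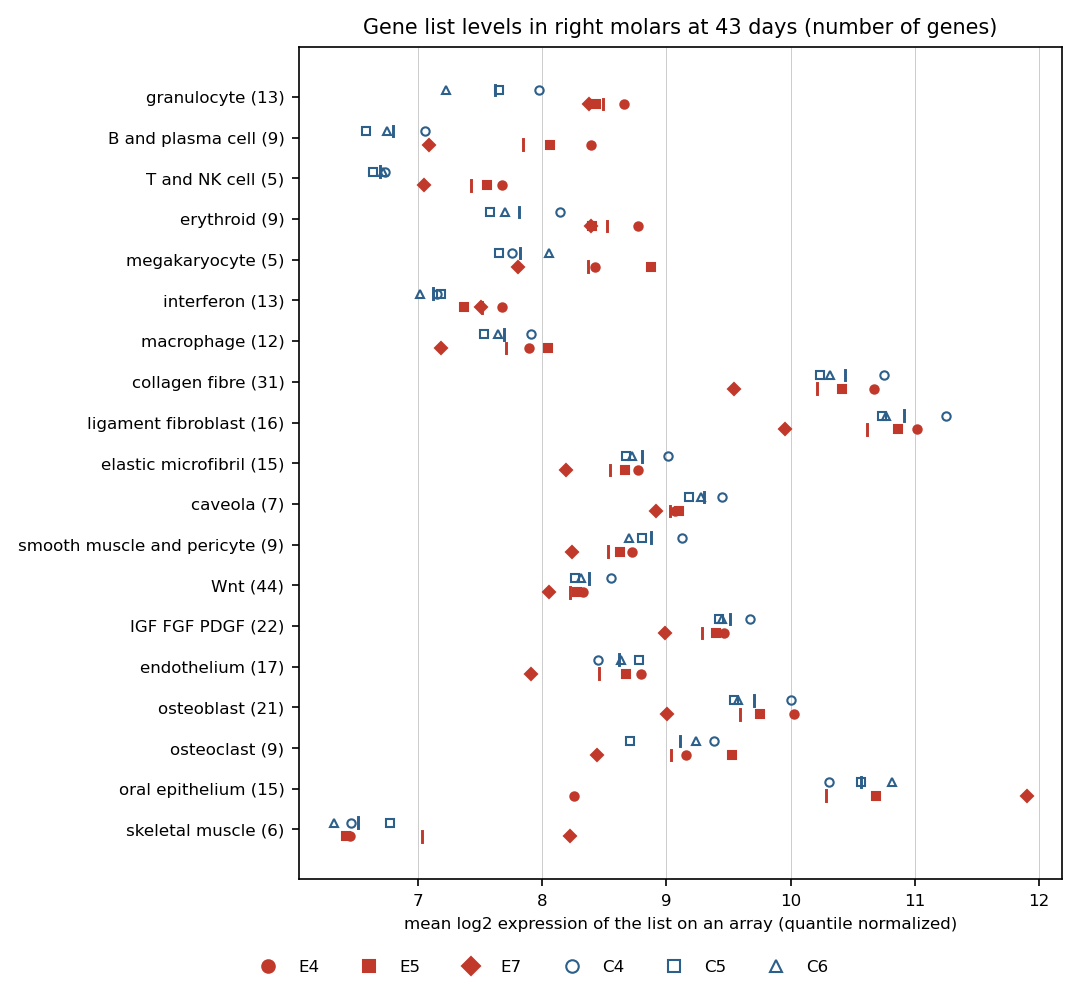
Mean log2 expression of 19 gene lists on each of the 6 arrays, with filled red symbols for experimental and open blue symbols for control molars, one symbol shape per numeral and a vertical bar at each group mean. The granulocyte, T and NK cell, erythroid and interferon means of the 3 experimental arrays lie above all 3 controls, the caveola means lie below them, and E4 and E7 lie at opposite ends of the oral epithelium row.

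Defining genes of the ligament stood well above the filter on low values, 5.81 on the log2 scale, on all 6 arrays. Periostin (Postn), the matricellular protein typical of this ligament, was at 12.96, 12.76 and 11.80 in the experimental and 13.16, 12.83 and 12.77 in the control molars. The type I collagen chains Col1a1 and Col1a2 were at 13.88, 13.72 and 13.47 against 13.91, 13.60 and 13.67 and at 13.72, 13.41 and 13.02 against 13.67, 13.35 and 13.44. The groups overlapped for all 3 of these genes, and the differences were -0.035 ± 0.14 for Col1a1 and -0.10 ± 0.21 for Col1a2, each of which turned above 0 with arrays centred on their medians. Tenomodulin (Tnmd), a marker of tendon and ligament cells, was near that filter, at 5.70, 6.17 and 6.03 against 7.12, 5.21 and 5.64.

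Genes of the collagen fibre lay slightly lower in experimental molars as a group, but not without E7. Of 31 measured collagen chains and collagen-assembly enzymes, 28 had a difference below 0 and 3 above, with a median of -0.24 beside 0.03 over all genes. Without E7 the median was 0.07 and 19 of 31 lay higher. Without E4 it was -0.51. Col15a1, a collagen of basement membrane zones, stood at 8.46, 8.18 and 7.90 against 8.57, 8.65 and 8.4, and the microfibrillar chain Col6a3 at 10.27, 10.02 and 9.02 against 10.40, 10.16 and 10.22. E7 was the lowest of the 6 arrays for both genes.

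The ligament fibroblast list lay lower in 15 of 16 tested genes, with a median of -0.24, and without E7 in 8 of 16, with a median of 0.01. Kera, the other measured member, fell below the filter, with means of 5.28 in the experimental and 4.6 in the control molars. Fibromodulin (Fmod), a small proteoglycan that binds collagen fibrils and shapes their thickness, stood at 8.61, 8.95 and 8.39 in the experimental molars and 11.24, 9.62 and 9.43 in the controls, a difference of -1.45 ± 0.53. The groups did not overlap, and C4 was far above the other controls. Fmod was the 1 of the 16 genes lower without overlap, beside 3.67% of all genes. Fitted without C4 the difference was -1.03 ± 0.56, and within the lower set of arrays, where C4 is absent, -0.87 ± 0.24. In right molars at 31 days Fmod differed by -2.12 ± 0.53, and the list median there was -0.44. Asporin (Aspn), a related proteoglycan, overlapped, at 11.65, 11.83 and 10.24 against 12.38, 11.58 and 11.82.

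Among genes of elastic fibres and their microfibrils, which build the oxytalan fibres of this ligament, 3 were lower on every experimental array. These were 3 of 15 tested, beside 3.67% of all genes lower without overlap. Efemp1, a fibulin of the extracellular matrix, was at 7.68, 7.99 and 7.79 against 8.66, 8.28 and 8.55, a difference of -0.68 ± 0.18. Ltbp1, which stores latent TGF-beta in the matrix, was at 8.65, 9.10 and 8.45 against 9.38, 9.45 and 9.43, a difference of -0.69 ± 0.22. Fbln1, another fibulin, was at 8.93, 9.0 and 8.29 against 10.01, 9.24 and 9.17. The lowest control stayed above the highest experimental value in each of the 3. The fibrillin Fbn1 was at 10.06, 9.67 and 8.85 against 9.96, 9.94 and 9.92 and overlapped. Of the 15 genes of the list 14 lay lower, with a median of -0.15, and without E7 9 lay lower, with a median of -0.09. The list median was -0.225 in left molars at 43 days and -0.31 in right molars at 31 days. In right molars at 31 days Efemp1 differed by -1.04 ± 0.18, Ltbp1 by -0.70 ± 0.22 and Fbln1 by -1.21 ± 0.34. These missed the threshold there too.

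The fibroblast progenitor list had a median of -0.04 over 11 genes, with 8 lower, and of 0.098 without E7, with 7 higher. Of the 11, 1 was lower and 2 were higher without overlap, beside 3.67% and 6.57% of all genes. Cd34, a surface marker of adventitial fibroblasts and of endothelium, was at 10.69, 11.02 and 10.05 against 11.05, 11.41 and 11.61, and the groups did not overlap. Its difference was -0.77 ± 0.20. Ly6c, whose product marks some fibroblasts and also monocytes and endothelium, was at 9.86, 9.76 and 8.44 against 7.78, 7.58 and 7.48, higher by 1.74 ± 0.48. Dpp4, a surface peptidase of fibroblasts and T cells, was at 6.78, 6.31 and 6.26 against 5.91, 5.97 and 5.67 and was named after its values were seen. E7 was the lowest experimental value for all 3.

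Caveolae are small membrane pits that flatten under stretch, and their coat genes lay mostly lower. Caveolin-1 (Cav1) was tightly grouped in the experimental molars, at 10.24, 10.22 and 10.18, and higher in every control, at 11.14, 10.82 and 10.65. The difference was -0.66 ± 0.20. In the left molars of the same animals it was 0.28 ± 0.20, and in right molars at 31 days -0.56 ± 0.20. The test of the difference between sides missed the threshold for Cav1. Ehd2, an ATPase at the caveolar neck, was at 9.48, 9.52 and 9.04 against 9.81, 9.64 and 9.65, also without overlap. These were the 2 of 7 members lower without overlap, beside 3.67% of all genes. Cav2 overlapped, at 8.01, 8.65 and 8.79 against 9.10, 8.75 and 9.03. Of 7 measured members 6 lay lower, with a median of -0.22, and without E7 5 lay lower, with a median of -0.19. List means were 9.07, 9.10 and 8.92 against 9.45, 9.18 and 9.28.

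Wnt signalling steers bone and cementum formation around the root, and its genes lay lower more often than higher, in 33 of 44 with a median of -0.14. The ligand Wnt5a, which signals largely without beta-catenin, had the clearest separation. It was at 8.88, 8.86 and 8.67 in the experimental molars and 9.49, 9.64 and 9.57 in the controls. The difference of -0.77 ± 0.18 corresponds to a level of 0.589 times the control. The Frizzled receptor Fzd4 was at 8.94, 9.14 and 8.33 against 9.20, 9.30 and 9.28. Dkk1, a secreted inhibitor of the pathway, was at 8.11, 7.97 and 7.13 against 8.71, 8.79 and 8.26, and Axin2, a target that feeds back on it, at 7.43, 7.39 and 7.11 against 7.78, 7.71 and 7.54. None of these 4 overlapped between groups. The ligands had a median of -0.23 over 14 genes, the receptors -0.09 over 15, the inhibitors -0.23 over 9 and the targets and effectors -0.30 over 6. In all, 6 of the 44 lay lower without overlap and 1 higher, beside 3.67% and 6.57% of all genes. Without E7 the list median was -0.05, with 26 of 44 lower.

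Of the growth factor genes of the IGF, FGF and PDGF families, 17 of 22 lay lower, with a median of -0.26. The IGF receptor Igf1r was at 9.03, 9.29 and 9.02 against 9.60, 9.58 and 9.68, a difference of -0.51 ± 0.14 without overlap. Igfbp3, which binds IGFs in the matrix and in blood, was at 10.80, 10.98 and 10.74 against 11.13, 11.70 and 11.38. The PDGF ligand Pdgfc was at 10.09, 9.71 and 9.78 against 10.64, 10.46 and 10.19. Each of these 3 was lower on every experimental array than on every control. Of the 22 genes, 5 lay lower and 1 higher without overlap, beside 3.67% and 6.57% of all genes. The receptor Fgfr3, known for restraining bone growth, ran the other way, at 9.02, 8.91 and 8.49 against 8.37, 7.86 and 8.26, a difference of 0.65 ± 0.17. The ligand Igf1 overlapped, at 10.90, 10.77 and 9.43 against 11.26, 10.18 and 10.42. Without E7 the list median was -0.06, with 14 of 22 lower.

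In the TGF-beta and BMP pathway the ligands lay lower and the intracellular members were mixed. Of 12 measured ligands 11 lay lower, with a median of -0.21. Bmp2, an inducer of bone formation, was at 8.04, 8.27 and 7.79 against 8.59, 8.42 and 8.58, and Gdf6, a BMP relative of joints and tendons, at 6.22, 5.97 and 5.90 against 6.49, 6.23 and 6.49. The signal transducer Smad2 was higher, at 8.50, 8.63 and 8.80 against 8.39, 8.24 and 8.09, a difference of 0.40 ± 0.12. None of the 3 overlapped. Of the 34 genes of the pathway, 2 lay lower and 2 higher without overlap, beside 3.67% and 6.57% of all genes. Tgfb1 itself was at 11.32, 11.28 and 10.05 against 11.07, 10.92 and 10.90, and its difference of -0.080 ± 0.30 turned above 0 with centred arrays. Over the whole pathway 22 of 34 genes lay lower, with a median of -0.07, and without E7 the median was 0.03.

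Bone-forming and bone-resorbing cells showed no group shift that held without E7. The osteoblast list had a median of -0.16 over 21 genes, and of 0.18 without E7. Runx2 and Sp7, the transcription factors that commit cells to the osteoblast lineage, were at 11.33, 11.56 and 10.27 against 11.53, 11.11 and 10.98 and at 10.37, 10.25 and 8.74 against 10.37, 9.81 and 9.65, with E7 lowest in each. Podoplanin (Pdpn), an early osteocyte protein also made by fibroblasts and epithelium, was at 11.12, 11.17 and 10.68 against 11.73, 11.43 and 11.27 without overlap. It was the 1 gene of the 21 lower without overlap, beside 3.67% of all genes. The osteoclast list had a median of -0.02 over 9 genes, with 4 higher and 5 lower. It was 0.18 without E7 and -0.23 without E5, and all 9 genes lay higher with the numeral as a replicate block (0.22) and with either kind of weights (0.44 and 0.35). Carbonic anhydrase 2 (Car2), which supplies acid for bone resorption, was at 10.90, 10.60 and 10.55 against 10.08, 10.45 and 10.52. It was the 1 gene of the list higher without overlap, beside 6.57% of all genes. Cathepsin K (Ctsk), the collagenase of osteoclasts, was at 12.38, 12.57 and 10.74 against 12.45, 11.73 and 12.43, and Mmp9 at 11.08, 11.72 and 9.66 against 11.54, 10.89 and 11.46. RANKL (Tnfsf11), the ligand that drives osteoclast formation, was at 7.17, 7.11 and 6.84 against 7.17, 7.23 and 7.22, and its decoy receptor Tnfrsf11b at 8.26, 8.12 and 7.33 against 8.62, 7.92 and 7.70. Differences of these 2 genes were -0.16 ± 0.20 and -0.17 ± 0.37.

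Vessel-wall genes lay lower as a list. For smooth muscle and pericytes 8 of 9 genes lay lower, with a median of -0.40, and without E7 7 did, with a median of -0.17. The pericyte proteoglycan Cspg4 was at 8.16, 7.69 and 8.22 against 9.0, 8.44 and 8.44, and smooth muscle myosin (Myh11) at 6.48, 6.75 and 6.6 against 6.96, 7.21 and 6.85. Both were without overlap, 2 of the 9 genes of the list, beside 3.67% of all genes lower without overlap. Actg2, the smooth muscle gamma-actin, was likewise at 6.09, 6.13 and 6.03 against 7.37, 6.81 and 6.72, a difference of -0.88 ± 0.25. Endothelial genes lay lower in 14 of 17, with a median of -0.20, but without E7 10 of 17 lay higher, with a median of 0.03. VE-cadherin (Cdh5) was at 10.24, 10.26 and 9.22 against 9.97, 10.29 and 10.01. In bulk tissue, fewer cells of a type and less RNA per cell cannot be told apart.

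**Figure D2:**
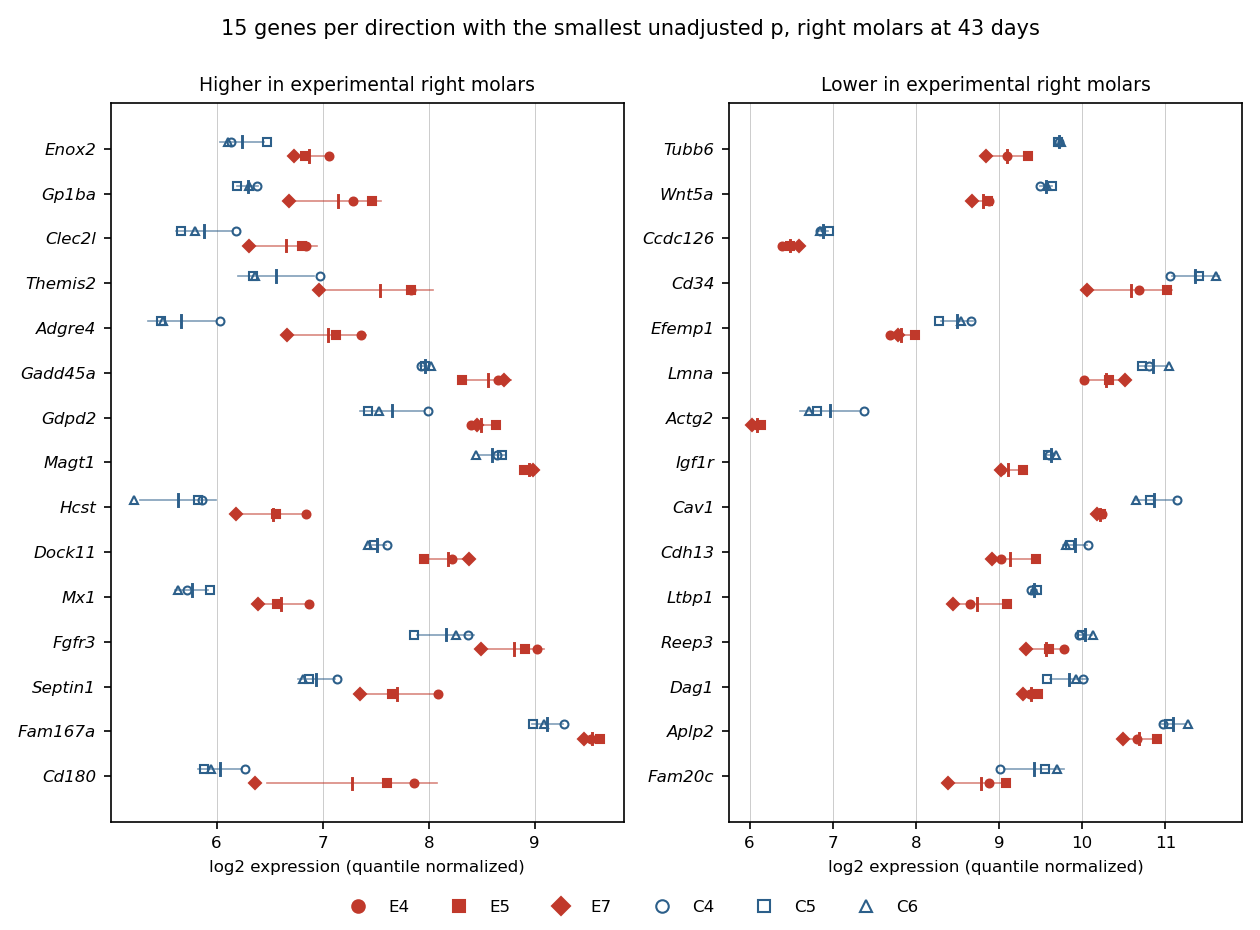
Log2 expression of the 15 genes with the smallest unadjusted p in each direction on each of the 6 arrays, with filled red symbols for experimental and open blue symbols for control molars, the group mean as a vertical bar and 1 SD to either side as a horizontal line. Most of the genes show no overlap between groups, and E7 (diamonds) lies nearest the controls for many of the higher genes, such as Cd180 and Themis2.

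The genes with the smallest unadjusted p on the higher side were led by Enox2, a surface oxidase, at 7.06, 6.83 and 6.73 against 6.13, 6.47 and 6.11. Cd180, a toll-like receptor relative of B cells, was at 7.86, 7.61 and 6.36 against 6.26, 5.88 and 5.94. Adgre4, an adhesion receptor of myeloid cells, was at 7.36, 7.13 and 6.67 against 6.04, 5.48 and 5.49, higher by 1.38 ± 0.33. Hcst, the adaptor of an activating receptor of NK and T cells, was at 6.84, 6.56 and 6.18 against 5.86, 5.82 and 5.22. Themis2, a signalling scaffold of B cells and macrophages, was at 7.83, 7.83 and 6.96 against 6.98, 6.35 and 6.37 and overlapped by a narrow margin between E7 and C4. Gadd45a, a growth arrest gene induced by DNA damage, was at 8.65, 8.31 and 8.71 against 7.92, 7.97 and 8.02, with all experimental values above all controls. The remaining higher genes were Clec2l, Gdpd2, Magt1, Dock11, Septin1 and Fam167a, with differences of between 0.35 and 0.84, and Gp1ba, Mx1 and Fgfr3, which are described with their lists.

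Among the 15 genes on the lower side, the beta-tubulin Tubb6 was at 9.10, 9.34 and 8.84 against 9.72, 9.71 and 9.74, a difference of -0.63 ± 0.15. Lamin A/C (Lmna), the protein mesh under the nuclear envelope, was at 10.02, 10.33 and 10.52 against 10.80, 10.71 and 11.04. T-cadherin (Cdh13) was at 9.03, 9.45 and 8.92 against 10.07, 9.86 and 9.81, and dystroglycan (Dag1), a receptor for basement membrane, at 9.38, 9.47 and 9.29 against 10.01, 9.58 and 9.93. None of the 4 overlapped between groups. Fam20c, the kinase that phosphorylates secreted proteins of bone and tooth, overlapped, at 8.87, 9.08 and 8.39 against 9.02, 9.55 and 9.70. Ccdc126, Reep3 and Aplp2 had differences between -0.46 and -0.39.

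Several lists of blood-forming and immune cells lay higher in the experimental molars. Of 14 measured granulocyte genes 13 were tested, and all 13 of these had a difference above 0, 8 of them without overlap, against 6.57% of all genes. Ltf, the lactoferrin gene, fell below the filter, with means of 5.13 in the experimental and 5.31 in the control molars. The median was 0.74 beside 0.03 over all genes. List means were 8.66, 8.43 and 8.38 in the experimental and 7.98, 7.65 and 7.23 in the control molars. Ngp, a granule protein of developing neutrophils, was at 11.37, 10.85 and 10.80 against 9.63, 9.13 and 8.31, higher by 1.99 ± 0.78. Myeloperoxidase (Mpo), a granule enzyme made by granulocyte precursors, was at 8.64, 8.06 and 8.33 against 7.14, 7.14 and 6.42, and neutrophil elastase (Elane) at 7.91, 7.64 and 7.80 against 6.96, 7.21 and 6.64. All 3 genes separated the groups. The chemokine receptor Cxcr2 of mature neutrophils was at 8.58, 8.48 and 8.76 against 8.25, 7.68 and 7.69, and the ficolin Fcnb at 10.11, 9.69 and 8.79 against 8.76, 8.03 and 7.72. The list median was 0.87 without E7 and 0.98 without C4.

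All 9 measured members of the B and plasma cell list lay higher, 4 of them without overlap, against 6.57% of all genes. Their median was 0.95. Jchain, which links secreted antibody units, was at 9.19, 9.05 and 7.39 against 6.83, 6.37 and 5.93, higher by 2.17 ± 0.74. Cd79a and Cd79b, the signalling chains of the B cell receptor, were at 9.64, 9.08 and 7.41 against 7.87, 6.69 and 7.14 and at 10.84, 10.18 and 8.36 against 8.61, 8.15 and 8.53. E4 and E5 lay above all controls for both, whereas E7 lay among the controls. Mzb1, a chaperone of antibody secretion, was at 7.07, 6.94 and 6.49 against 6.22, 5.96 and 5.62, and Cd22, an inhibitory receptor of B cells, at 8.20, 7.54 and 6.76 against 6.45, 6.24 and 6.98. The list means of the 3 experimental arrays were 8.4, 8.06 and 7.09, against 7.05, 6.59 and 6.75. Without E7 the median was 1.28 and without E4 it was 0.68. Bank1, a B cell scaffold protein, was 1 of the 4 genes past the threshold without E7, with a difference of 1.82 ± 0.29 and an adjusted p of 0.0241 by limma, against 1.30 ± 0.36 with E7.

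Of the 10 T and NK cell markers 5 were not tested. Cd3e, Cd3d, Cd3g, Cd2 and Gzmb had means over all 23 arrays below the filter. In the experimental against the control molars their means were 5.75 against 5.29 for Cd3e, 5.65 against 5.51 for Cd3d, 6.21 against 4.93 for Cd3g, 6.22 against 5.41 for Cd2 and 4.94 against 4.596 for Gzmb. The other 5 members all lay higher, with a median of 0.69. Nkg7, a granule protein of cytotoxic cells, was at 9.03, 9.02 and 8.12 against 7.32, 7.13 and 7.02, higher by 1.56 ± 0.58. The kinase Lck of T cell receptor signalling was at 7.11, 7.27 and 6.99 against 6.36, 6.39 and 6.54. These 2 of the 5 were higher without overlap, against 6.57% of all genes. Cd8a overlapped, at 7.06, 7.11 and 6.12 against 6.29, 5.93 and 5.84.

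Erythroid genes were higher in all 9 measured members, 5 without overlap against 6.57% of all genes, with a median of 0.79. Gata1, the transcription factor of red cell and platelet precursors, was at 7.75, 7.30 and 7.08 against 7.01, 5.98 and 6.49. Rhag, a membrane channel of the red cell, was at 7.42, 7.22 and 7.48 against 6.69, 6.61 and 6.59, and Epb42, a protein of its skeleton, at 8.73, 8.21 and 7.89 against 7.68, 7.31 and 7.25. Hemgn, a nuclear factor of blood precursors, was at 10.49, 9.83 and 9.76 against 9.40, 8.49 and 9.01. The anion exchanger Slc4a1 overlapped, at 11.93, 11.13 and 10.99 against 11.02, 10.30 and 10.37. Standard errors, which pool the spread of all groups of the series, were wide for these genes, for instance 0.79 ± 0.69 for Slc4a1. Among the arrays compared, the standard deviation of Slc4a1 was 0.51 in the experimental and 0.40 in the control molars. The list median was 0.99 without E7 and 0.57 without E4.

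Of the 5 measured megakaryocyte and platelet genes, 4 were higher without overlap, against 6.57% of all genes, and the median was 0.69. The other member lay lower, with a difference of -0.40. List means were 8.43, 8.88 and 7.81 against 7.76, 7.655 and 8.055, so E7 lay below C6 and the list means overlapped. The platelet glycoprotein Gp1ba, part of the receptor for von Willebrand factor, was at 7.28, 7.46 and 6.69 against 6.38, 6.19 and 6.31, higher by 0.85 ± 0.19. Its partner Gp9 was at 8.32, 8.26 and 7.94 against 7.55, 7.33 and 7.56. The integrin chain Itga2b was at 7.42, 7.38 and 6.90 against 6.63, 6.55 and 6.62, and platelet factor 4 (Pf4) at 8.49, 8.84 and 7.71 against 7.44, 7.22 and 7.50. Without E7, Gp1ba passed the threshold with a difference of 1.08 ± 0.17 and an adjusted p of 0.0241 by limma. F2rl2, a thrombin receptor relative, and Rnase6, an antimicrobial ribonuclease of leukocytes, were the other 2 genes that passed without E7. Their differences there were 1.51 ± 0.21 and 1.995 ± 0.30, with adjusted p-values of 0.0157 and 0.0241, against 1.05 ± 0.29 and 1.42 ± 0.38 with E7. Bank1, F2rl2 and Rnase6 were named after their values were seen.

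GATA1 binds a short motif with the core letters GATA, so the promoters of the erythroid and megakaryocyte genes that separated the groups were searched for it. RefSeq promoters (assembly GRCr8, 250 bases before to 50 after the start of the gene) were available for 4 of the 5 erythroid and 3 of the 4 megakaryocyte genes. The letters searched were AGATAA and TGATAA on both strands, the latter 2 reading TTATCT and TTATCA on the strand printed. At least 1 match occurred in 1 of these 4 erythroid and 2 of these 3 megakaryocyte promoters, and over the whole lists in 3 of 7 erythroid and 2 of 4 megakaryocyte promoters, against 10.9% of the 11087 promoters of genes tested and 18.9% of all 33469 promoters of the same length. The promoters with a match are printed 5′ to 3′ along the gene's strand, with the matched letters in capitals. Rhag lies at chr9:27594341-27594640 on the minus strand, Gp1ba at chr10:55851309-55851608 on the plus strand and Itga2b at chr10:87925784-87926083 on the minus strand.
Rhag: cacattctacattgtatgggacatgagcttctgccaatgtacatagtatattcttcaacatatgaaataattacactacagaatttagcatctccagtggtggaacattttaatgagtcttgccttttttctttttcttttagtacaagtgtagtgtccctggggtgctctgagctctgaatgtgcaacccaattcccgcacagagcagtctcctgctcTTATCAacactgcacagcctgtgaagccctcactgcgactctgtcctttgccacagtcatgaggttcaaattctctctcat
Gp1ba: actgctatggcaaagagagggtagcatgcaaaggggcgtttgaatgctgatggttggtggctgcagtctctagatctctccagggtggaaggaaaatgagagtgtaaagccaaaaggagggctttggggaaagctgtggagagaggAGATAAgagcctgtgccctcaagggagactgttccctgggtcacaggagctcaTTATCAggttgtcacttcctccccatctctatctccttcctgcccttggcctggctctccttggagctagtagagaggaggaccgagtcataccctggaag
Itga2b: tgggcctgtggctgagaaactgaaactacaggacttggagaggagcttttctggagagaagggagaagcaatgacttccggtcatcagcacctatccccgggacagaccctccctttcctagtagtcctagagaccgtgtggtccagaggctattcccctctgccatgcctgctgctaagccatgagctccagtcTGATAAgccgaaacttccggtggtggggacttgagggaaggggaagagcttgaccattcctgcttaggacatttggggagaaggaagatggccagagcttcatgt
The match in Rhag begins at position -31, those in Gp1ba at -104 and -51 and that in Itga2b at -55, counted from the start site. The 2 lists were made of known genes of these cells, so their shares are not a test of these data. A match is a description of the letters and says nothing of what binds there in this tissue.

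Interferon-stimulated genes, which cells switch on when they sense interferon, were higher in 11 of 13 tested members, with a median of 0.39. Of the 13, 7 were higher without overlap, against 6.57% of all genes. Isg15 fell below the filter, with means of 5.28 in the experimental and 4.58 in the control molars. The antiviral GTPases Mx1 and Mx2 were at 6.88, 6.57 and 6.39 against 5.72, 5.94 and 5.64 and at 6.6, 6.54 and 6.58 against 5.94, 6.16 and 5.54. Mx1 was higher by 0.84 ± 0.22 and Mx2 by 0.69 ± 0.26. The transcription factor Irf7, which amplifies interferon production, was at 8.83, 7.81 and 7.85 against 7.14, 7.29 and 7.27. E4 was the highest array, about 1 unit above E5 and E7. Irf9 and Stat2, which together with a further STAT form the factor that reads the interferon signal, were at 8.51, 8.44 and 8.16 against 8.03, 7.98 and 7.94 and at 8.47, 7.94 and 8.04 against 7.83, 7.85 and 7.85. Ifit3, which restricts viral RNA, was at 8.52, 7.57 and 7.38 against 6.96, 7.36 and 6.42, and Oas1a, a sensor enzyme of double-stranded RNA, at 6.30, 6.24 and 6.33 against 5.67, 5.93 and 5.61. Ifit1 was among the 2 members that lay lower, at 5.67, 6.05 and 8.89 against 7.67, 7.50 and 7.33, and it overlapped. The list median was 0.50 without E7 and 0.31 without E4.

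The factor made of STATs and Irf9 binds the interferon-stimulated response element, and its core, GAAANNGAAA or TTTCNNTTTC on the other strand, was searched in the same promoters. It was found in 6 of the 9 tested interferon genes with a RefSeq promoter, against 2.97% of the promoters of genes tested and 3.92% of all promoters. The list was made of known interferon-stimulated genes, so this share is not a test of these data. Of the 7 genes without overlap 6 had a promoter and 3 held the core. These are Irf7 (chr1:205799974-205800273, minus strand), Ifit3 (chr1:241527076-241527375, plus strand) and Oas1a (chr12:41330216-41330515, plus strand), printed in the same way with the matches in capitals to show how near the start site the core lies.
Irf7: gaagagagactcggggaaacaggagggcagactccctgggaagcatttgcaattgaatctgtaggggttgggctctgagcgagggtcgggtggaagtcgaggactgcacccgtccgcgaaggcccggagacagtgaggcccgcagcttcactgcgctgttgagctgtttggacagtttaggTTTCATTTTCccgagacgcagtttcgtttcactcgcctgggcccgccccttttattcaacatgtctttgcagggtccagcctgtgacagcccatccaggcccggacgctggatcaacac
Ifit3: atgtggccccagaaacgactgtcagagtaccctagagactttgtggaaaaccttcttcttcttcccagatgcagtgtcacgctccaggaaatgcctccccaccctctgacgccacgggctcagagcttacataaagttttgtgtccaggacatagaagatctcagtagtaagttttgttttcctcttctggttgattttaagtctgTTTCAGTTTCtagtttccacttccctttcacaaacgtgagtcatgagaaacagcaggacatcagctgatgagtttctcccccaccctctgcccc
Oas1a: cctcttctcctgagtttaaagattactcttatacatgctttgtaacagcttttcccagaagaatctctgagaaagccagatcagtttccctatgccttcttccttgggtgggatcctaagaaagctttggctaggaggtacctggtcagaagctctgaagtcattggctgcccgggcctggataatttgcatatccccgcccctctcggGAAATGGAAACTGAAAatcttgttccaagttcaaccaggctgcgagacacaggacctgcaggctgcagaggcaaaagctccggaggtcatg
The core begins at position -69 in Irf7 and -44 in Ifit3. In Oas1a 2 overlapping matches begin at -41 and -35. Mx1, Irf9 and Stat2 hold no match in their windows, which says only that these letters are not within the bases searched.

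**Figure D3:**
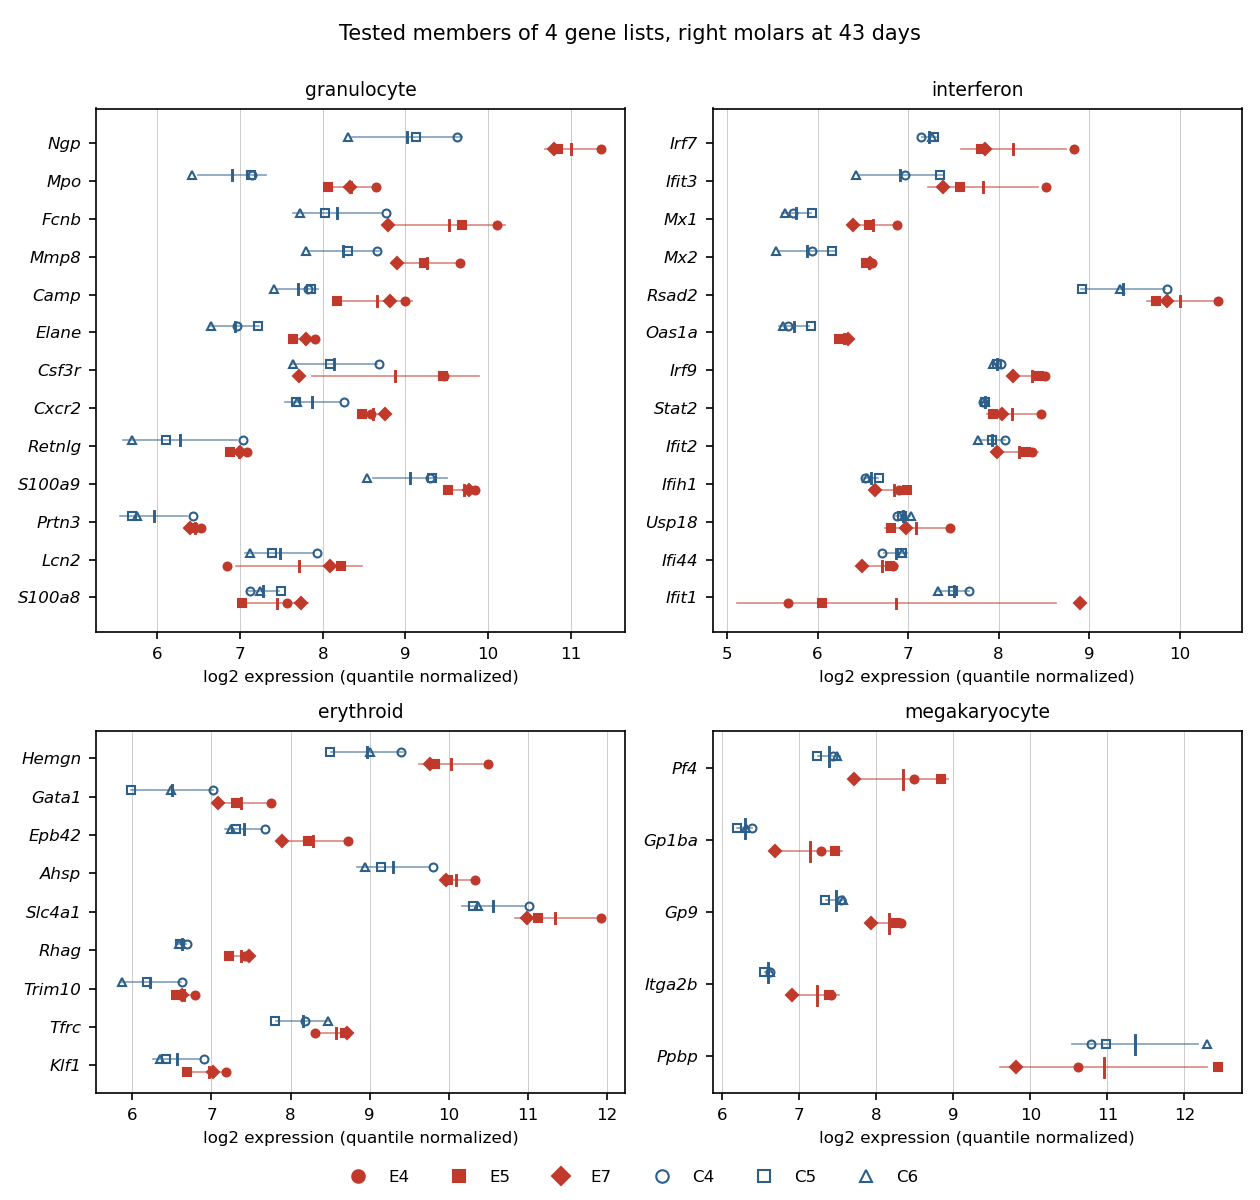
Log2 expression of every tested member of the granulocyte, erythroid, megakaryocyte and interferon lists on each of the 6 arrays, with filled red symbols for experimental and open blue symbols for control molars, the group mean as a vertical bar and 1 SD to either side as a horizontal line. Experimental means lie above control means for all 13 granulocyte and 9 erythroid genes, 4 of 5 megakaryocyte genes and 11 of 13 interferon genes.

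Antigen-presenting and macrophage genes did not separate the groups. All 8 class II antigen presentation genes had a difference above 0, with a median of 0.38, and 0 of them were without overlap. Within the lower set of arrays, where C4 is absent, 6 of the 8 lay higher. Cd74, the invariant chain, was at 12.95, 12.78 and 12.07 against 11.90, 12.13 and 12.48, and RT1-Ba, a class II chain, at 9.63, 9.26 and 9.05 against 8.27, 8.50 and 9.20. Of 12 macrophage genes 7 lay higher and 5 lower, with a median of 0.04 that turned to -0.13 in the values as deposited, to -0.065 without E4 and to -0.16 without E5. Csf1r, the receptor that sustains macrophages, was at 10.31, 10.68 and 8.77 against 10.08, 9.29 and 9.90, and Cd14, a co-receptor for bacterial lipopolysaccharide, at 7.79, 8.35 and 7.99 against 8.49, 8.39 and 8.45. Cd14 was the macrophage gene that was lower without overlap, as were 3.67% of all genes. The inflammation list had a median of 0.06, with 8 of 12 genes higher, and of -0.07 as deposited. Il1b, a cytokine of activated myeloid cells, was at 10.12, 9.82 and 8.29 against 8.57, 8.68 and 7.45, and the chemokine Ccl3 at 8.69, 8.37 and 6.53 against 7.49, 6.65 and 6.15. For both, E4 and E5 lay above all controls and E7 among them. Tnf was at 6.68, 6.82 and 6.74 against 6.74, 6.69 and 6.80, with a difference of 0.002 ± 0.14.

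The blood cell lists stood elsewhere in the other comparisons of the series. In the left molars of the same 6 animals, list medians were 0.03 for granulocyte, 0.19 for B and plasma cell, 0.11 for T and NK cell, 0.01 for erythroid, 0.36 for megakaryocyte and 0.10 for interferon genes. In right molars at 31 days, from other animals, they were -0.47, 0.02, 0.10, -0.14, -0.09 and -0.06 in the same order. Ngp, for example, differed by 0.60 ± 0.78 in left molars at 43 days and by -1.05 ± 0.78 in right molars at 31 days. On arrays outside the 6 compared, list means spanned 6.92 to 9.83 for granulocyte and 6.59 to 8.49 for B and plasma cell genes. They spanned 6.64 to 7.78 for T and NK cell and 6.996 to 9.5 for erythroid genes. All means of the experimental right molars at 43 days lay within these ranges. Megakaryocyte genes reached 8.88 on E5, against 8.54 on arrays outside the 6. Interferon genes reached 7.67 on E4, against 7.55. The test of the difference between sides passed for 0 of 13624 genes in limma's fit, with 443 at an unadjusted p under 0.05, and that between ages for 0, with 325. So the right-molar differences are not shown to be particular to this side or age. In the left molars by themselves 0 genes passed, with 231 at an unadjusted p under 0.05, and in right molars at 31 days 0 passed, with 422. For the signalling pathways, Wnt medians were -0.14, -0.19 and -0.10 and IGF, FGF and PDGF medians -0.26, -0.20 and -0.25 in right molars at 43 days, left molars at 43 days and right molars at 31 days. The left and right molars of an animal share that animal.

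**Figure D4:**
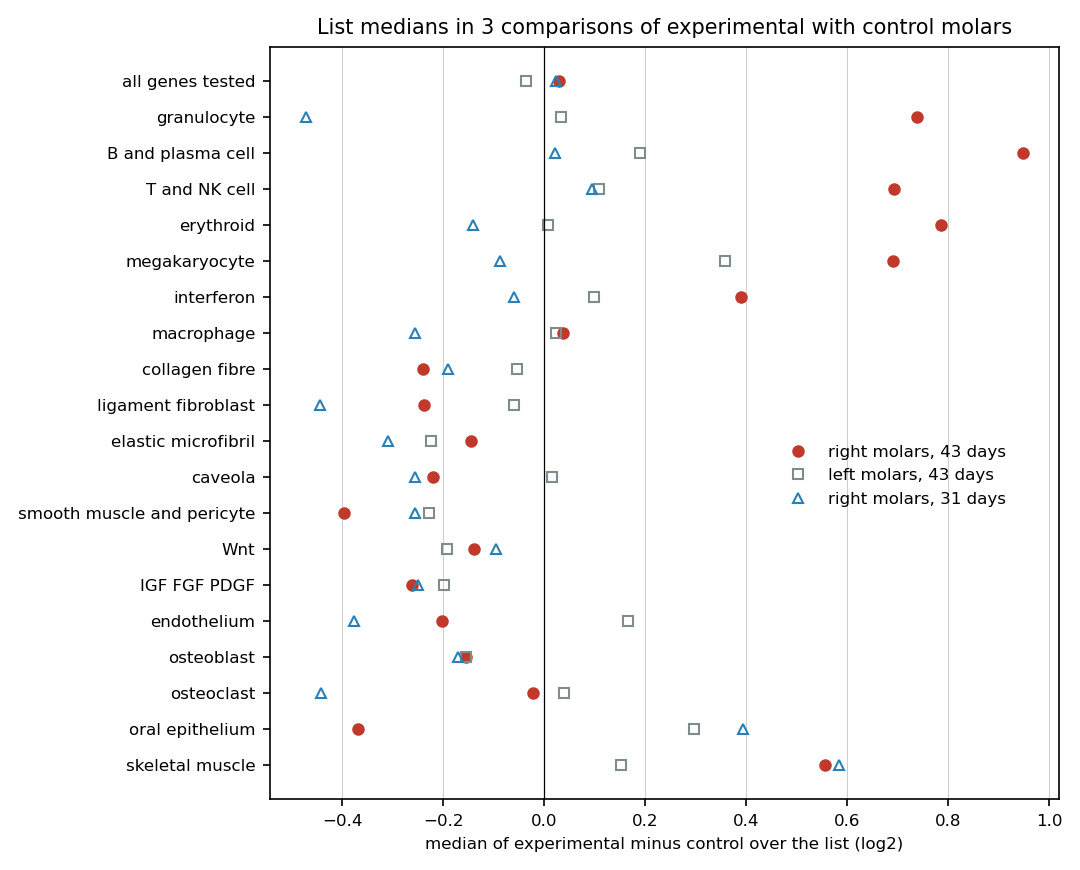
Median of the experimental minus control difference over each gene list, in right molars at 43 days (filled circles), left molars at 43 days (open squares) and right molars at 31 days (open triangles), with all genes tested in the first row and a vertical line at 0. The granulocyte, B and plasma cell, T and NK cell and erythroid medians lie between 0.69 and 0.95 in right molars at 43 days and at or below 0.19 in the other 2 comparisons.

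**Figure D5:**
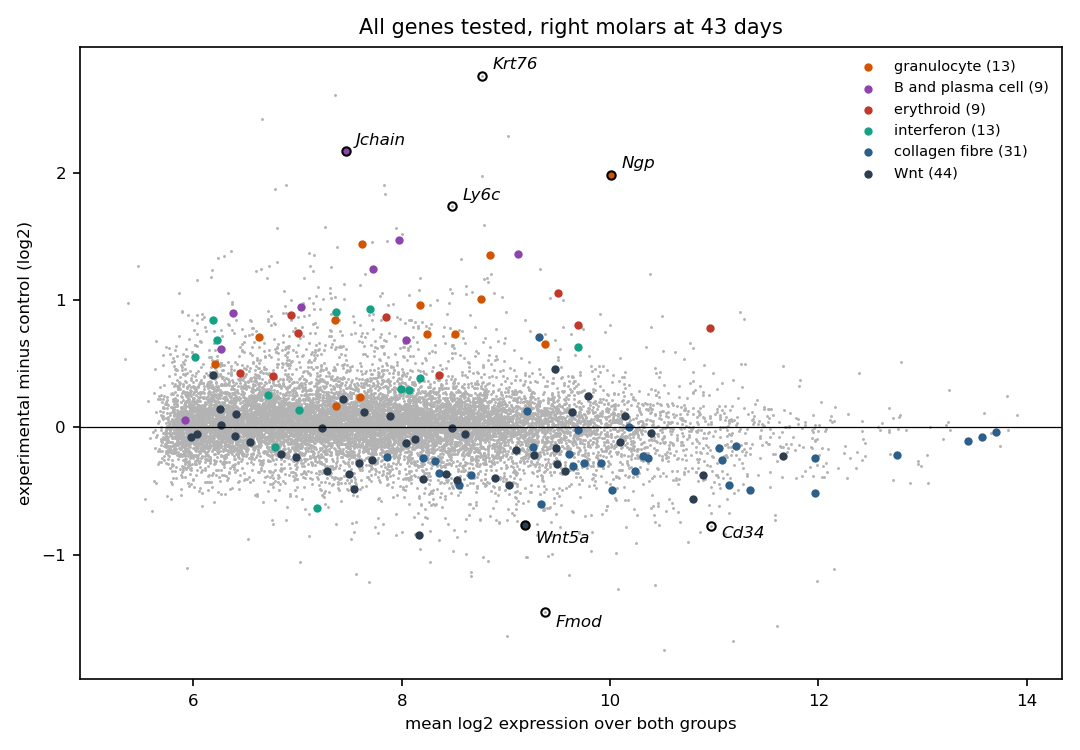
Experimental minus control difference (log2) against the mean log2 expression over both groups for all 13624 genes tested in right molars at 43 days, with members of 6 lists in colour and 7 genes circled. Granulocyte, B and plasma cell and erythroid genes lie above 0, whereas most collagen fibre and Wnt genes lie just below 0.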

How the data were processed

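Values of 23 arrays from 12 animals were used as deposited: log2 values. The submitters' processing notes name RMA and Partek for the authors' deposited values. Versions, settings and order of steps are not given in the sources used here. The table holds 36685 probe sets, of which the platform table gives 18511 a single gene symbol, 575 several and 17599 none. The values were quantile normalized between arrays. Each of 18166 genes was represented by its single-symbol probe set with the highest mean, and genes with a mean below the 25th percentile (5.81) were left out, leaving 13624.

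The model held 1 mean for each of 8 groups (treatment, side and age together) and used all 23 arrays, with the animal as a random block (correlation 0.258). It was fitted with limma 3.58.1 and statmod 1.5.0 under R 4.3.3. Adjustment of p-values was by the Benjamini-Hochberg method across all genes tested. The fit was checked on simulated data. The number of arrays limits the precision.

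The members, the 37 gene lists and the rule for naming genes were chosen with earlier results of these data known. Named are up to 15 genes per direction with the smallest p, and of each list the first 2 measured members and up to 4 with the smallest p, passing over placeholder loci, receptor families and small RNAs. Members of the lists with printed promoters, Bank1, F2rl2, Rnase6, Ifit1 and Dpp4 were named beside these. Lists are described by counts and medians, without a test. The alternatives are other scalings, blocks, filters, array subsets and weights, and leaving out each of the 6 arrays in turn. RefSeq names and promoters are of assembly GRCr8.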

Additional observations from a re-analysis of the deposited data

Results flagged for a closer look

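The values of Enox2 separated the groups in opposite directions on the 2 sides of the jaw at 43 days. In right molars every experimental value lay above every control value, with a difference of 0.64 ± 0.13 (log2, n = 3 animals in each group). In left molars every experimental value lay below every control value, but the difference of -0.13 ± 0.13 was no larger than its SE. In right molars at 31 days Enox2 differed by 0.58 ± 0.13. The right minus left difference was 0.77 ± 0.16, and its adjusted p of 1 in limma's test over all genes missed the threshold.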

How the results depend on the processing

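The count of genes past the threshold was 0 in the reported fit and under all alternatives run except these: 1745 with array quality weights, 244 with gene-by-gene weights, and 0 to 4 over the arrays left out in turn, the 4 without E7. At an unadjusted p under 0.05 the count of 644 became 369 as deposited, 1092 within the lower set of arrays, 400 with genes below the 50th percentile left out, 3841 and 2105 with the 2 kinds of weights, 1284 over all probe sets, and 388 to 779 over the arrays left out in turn. The causes of these changes were not tested, beyond the different number of genes or probe sets tested. Of the title numerals only 4 and 5 occur in both groups, so they share only a number; deviations correlated at 0.23 and -0.14, and with the numeral as a replicate block 0 genes passed and 649 stood at an unadjusted p under 0.05.

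Over 19 alternatives, list medians ranged from 0.65 to 1.01 for granulocyte, 0.68 to 1.4 for B and plasma cell, 0.57 to 1.03 for erythroid, 0.57 to 0.83 for megakaryocyte, 0.29 to 0.51 for interferon, -0.37 to -0.12 for caveola, -0.28 to -0.03 for Wnt and -0.45 to -0.06 for IGF, FGF and PDGF genes. Medians spanned 0 for osteoclast genes, from -0.23 to 0.44, and for macrophage genes, from -0.16 to 0.30. Many other lists spanned 0 too. Among them were collagen fibre (-0.51 to 0.065), osteoblast (-0.34 to 0.20) and oral epithelium (-0.97 to 0.57). The ligament fibroblast, fibroblast progenitor, protease, TGF-beta and BMP, endothelium, inflammation, cell cycle and hypoxia lists also did. Of 124 named genes, 70 passed the threshold with array quality weights and 43 with gene-by-gene weights. Of the same 124, 108 kept their direction throughout. The other 16 changed direction as follows.

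As deposited, the difference was -0.16 for Tnf. Within the lower set, the difference was 0 for Tnf, 0.54 for Tnmd, 0.057 for Col1a1, 0.006 for Runx2, 0.055 for Sp7, 0.095 for Tnfrsf11b and 0.065 for Igf1. With the set as a block, the difference was 0.44 for Tnmd, 0.043 for Col1a1, 0.008 for Col1a2, 0.04 for Sp7, 0.046 for Tnfrsf11b and 0.057 for Igf1. With weights, the difference was 0.46 for Tnmd, 0.019 for Col1a1, 0.37 for Runx2, 0.33 for Sp7, 0.35 for Ctsk, 0.37 for Mmp9, 0.13 for Tnfrsf11b, 0.29 for Tgfb1, 0.21 for Igf1, 0.07 for Cdh5 and -0.12 for Mb. With gene-by-gene weights, the difference was 0.35 for Tnmd, 0.033 for Col1a1, 0.26 for Runx2, 0.26 for Sp7, 0.23 for Ctsk, 0.16 for Mmp9, 0.099 for Tnfrsf11b, 0.23 for Tgfb1, 0.17 for Igf1 and 0.013 for Cdh5. With centred arrays, the difference was 0.091 for Col1a1, 0.018 for Col1a2 and 0.025 for Tgfb1. With the replicate block, the difference was 0.032 for Col1a1, 0.023 for Runx2, 0.15 for Sp7, 0.22 for Ctsk, 0.13 for Mmp9, 0.23 for Tgfb1, 0.07 for Cdh5 and -0.039 for Mb. Over the 6 arrays left out in turn the difference ranged from -0.12 to 0.61 for Csf1r (reversed without E4 and E5), -0.31 to 0.41 for Tnmd (reversed without C4 and E4), -0.84 to 0.12 for Krt14 (reversed without E4), -2.35 to 0.57 for Krt13 (reversed without E4), -0.045 to 0.047 for Tnf (reversed without C5 and E5), -0.13 to 0.065 for Col1a1 (reversed without C4 and E7), -0.30 to 0.077 for Col1a2 (reversed without E7) and -0.36 to 0.20 for Runx2 (reversed without E7). The range was -0.46 to 0.30 for Sp7 (reversed without E7), -0.59 to 0.20 for Ctsk (reversed without E7), -0.39 to 0.11 for Tnfrsf11b (reversed without E7), -0.29 to 0.27 for Tgfb1 (reversed without E7), -0.58 to 0.21 for Igf1 (reversed without E7), -0.36 to 0.12 for Cdh5 (reversed without E7) and -0.21 to 1.48 for Mb (reversed without E7).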

Other observations

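Of 9 measured repressors of the circadian loop 7 lay lower, with a median of -0.41, and all 4 activators lay higher, with a median of 0.21. Per1 was at 7.60, 7.73 and 7.76 in E4, E5 and E7 against 9.50, 8.08 and 8.39 in C4, C5 and C6, a difference of -0.96 ± 0.50 without overlap. Ciart was at 5.72, 5.74 and 5.72 against 6.2, 5.95 and 6.2, and Per2 overlapped, at 7.65, 7.34 and 7.03 against 7.59, 7.62 and 8.09. Per3 overlapped too, at 7.85, 8.12 and 7.63 against 7.88, 8.35 and 8.60. Per1 and Ciart were the 2 of 9 repressors lower without overlap, beside 3.67% of all genes. Cry1 was 1 of the 2 repressors that lay higher, at 7.81, 7.60 and 7.69 against 7.64, 7.24 and 7.34. In the left molars of the same animals Per1 differed by -1.15 ± 0.50, and in right molars at 31 days by -0.30 ± 0.50. The labels used here give no hour of collection. Among early response genes 14 of 16 lay higher, with a median of 0.20, and Egr1, a transcription factor induced within minutes of a stimulus, was at 11.17, 11.19 and 10.96 against 10.90, 10.41 and 10.13, without overlap. Of the 16, 3 were higher without overlap, beside 6.57% of all genes. All these genes missed the threshold of limma's test.

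Among proteases and their inhibitors, tissue plasminogen activator (Plat) was at 9.71, 10.62 and 9.84 against 10.72, 10.63 and 11.04, and the metalloprotease inhibitor Timp4 at 5.67, 5.95 and 5.77 against 5.97, 6.23 and 6.12, both lower without overlap. Neutrophil collagenase (Mmp8), which is on the granulocyte list too, was higher without overlap, at 9.66, 9.23 and 8.90 against 8.65, 8.31 and 7.79, a difference of 1.01 ± 0.58. Of the 24 proteases and inhibitors tested, 2 were lower and 1 higher without overlap, beside 3.67% and 6.57% of all genes. The stretch response list had a median of -0.09 over 11 genes, and its targets Ccn1 and Ccn2 overlapped, with differences of -0.49 ± 0.46 and -0.39 ± 0.32. Nerve sheath genes split, with a list median of -0.038 that was 0.007 without E4: myelin basic protein (Mbp) was at 7.84, 8.01 and 8.27 against 7.25, 7.30 and 7.35, and the glial calcium-binding protein S100b at 6.50, 6.04 and 6.93 against 7.69, 7.22 and 7.74. The secreted complement factor D (Cfd), listed as an adipocyte gene, was at 7.21, 7.33 and 6.88 against 6.68, 6.12 and 6.66, without overlap. Of the 7 adipocyte genes tested, 3 were higher without overlap, beside 6.57% of all genes. The protease and inhibitor list had a median of -0.17 over 24 genes, and 0.18 without E7. The junctional epithelium proteins Odam and Amtn overlapped, with Amtn at 6.83, 6.70 and 8.53 against 9.07, 8.76 and 6.71. The proliferation marker Mki67 was at 9.62, 9.71 and 10.21 against 9.25, 9.68 and 9.52, and 16 of 22 cell cycle genes lay higher, with a median of 0.09 that was -0.086 without E7. The medians of the remaining lists were -0.16 over 4 mast cell genes, -0.10 over 11 unfolded protein response genes, -0.11 over 10 hypoxia genes, -0.096 over 10 cartilage genes, -0.38 over 3 pulp and odontoblast genes and 0.066 over 7 genes that signal to osteoclasts. Those of the adipocyte and odontogenic epithelium lists were 0.16 over 7 genes and -0.26 over 6 genes. That of the unfolded protein response was 0.017 without E7, and that of hypoxia 0.091 without E4.

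Of the 27514 probe sets left by the same filter, 11445 carry no single listed symbol. Of these, 0 passed the threshold in limma's test over all probe sets, and 563 (4.92%) stood at an unadjusted p under 0.05.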
